A study of Mus musculus with 6 samples.

Results

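The genes described here encode the mitochondrial ribosomal proteins of the mouse, taken as every measured gene whose symbol starts with Mrpl or Mrps and a number. Pseudogenes, of which RefSeq lists 6 with such symbols, were not included. The group held 78 of the 29752 genes or unnamed transcripts tested, and 100 probes measured them. Expression was measured in BV2, an immortalized line of mouse microglia, the macrophages of the brain. The cells received recombinant murine IL-4 at 10 ng/ml for 24 hr (n = 3) or PBS for 24 hr (n = 3), on plates coated with poly-L-lysine, and each sample was hybridised to 1 single-colour Agilent array. BV2 is 1 line. Whether replicates are separate cultures is not in the labels, and p-values here cover only the spread among the 6 samples, part of which may be technical. All samples are whole cultures, in which fewer cells of a state and less RNA per cell cannot be told apart.

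The mitochondrial ribosome translates the few messenger RNAs of mitochondrial DNA, which encode core subunits of the respiratory chain and of ATP synthase. All of its proteins are encoded in the nucleus, made on cytosolic ribosomes and imported, whereas its RNA is transcribed in the organelle. The large subunit holds the peptidyl transferase centre and the exit tunnel, and the small subunit holds the decoding centre. Some of the proteins have a counterpart in bacterial ribosomes and others are specific to mitochondria. In macrophages, IL-4 signals through STAT6 and induces the alternatively activated state, which is known for oxidative metabolism and for arginase 1.

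Of the 78 genes, 51 were assigned to the large subunit, among them Mrps18a and Mrps30, whose proteins lie there despite their names. Another 26 were assigned to the small subunit. Mrps36 was kept apart, since its protein is now known as a component of the 2-oxoglutarate dehydrogenase complex. A bacterial counterpart was listed for 48 and a mitochondria-specific protein for 29. The genes lie on 17 chromosomes, with at most 11 on any of them. Each of the 78 was well above background, and had a value, on all 6 arrays, so none entered through the group in which it was high.

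The promoters of the genes the results turn on are shown first, since nuclear genes of mitochondrial proteins are known for binding sites of NRF1, of ETS-family factors such as GABP, and of YY1. The windows are those of RefSeq on GRCm38.p6, from 250 bases before to 50 bases after the annotated start, 5′ to 3′ on the strand of the gene. Mrpl34 lies on the plus strand at chr8:71464676-71464975, Mrpl42 on the minus strand at chr10:95501900-95502199, and Mrps31 on the plus strand at chr8:22411090-22411389. Mrpl11 lies on the plus strand at chr19:4962056-4962355 and Mrpl27 on the plus strand at chr11:94653541-94653840. Capitals mark matches to GCGCANGCG for NRF1, CCGGAAG for ETS factors or AAGATGGCG for YY1, on either strand.
Mrpl34: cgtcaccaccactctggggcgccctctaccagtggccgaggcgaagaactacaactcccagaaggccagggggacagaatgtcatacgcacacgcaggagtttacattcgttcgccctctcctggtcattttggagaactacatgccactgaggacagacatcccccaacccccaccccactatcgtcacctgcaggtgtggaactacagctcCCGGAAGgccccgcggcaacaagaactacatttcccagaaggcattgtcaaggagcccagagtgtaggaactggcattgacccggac
Mrpl42: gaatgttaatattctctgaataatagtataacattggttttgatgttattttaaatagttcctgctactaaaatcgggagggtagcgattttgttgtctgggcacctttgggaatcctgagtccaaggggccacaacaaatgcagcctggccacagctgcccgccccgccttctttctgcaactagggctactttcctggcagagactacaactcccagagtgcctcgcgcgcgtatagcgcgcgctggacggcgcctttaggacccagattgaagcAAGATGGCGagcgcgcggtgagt
Mrps31: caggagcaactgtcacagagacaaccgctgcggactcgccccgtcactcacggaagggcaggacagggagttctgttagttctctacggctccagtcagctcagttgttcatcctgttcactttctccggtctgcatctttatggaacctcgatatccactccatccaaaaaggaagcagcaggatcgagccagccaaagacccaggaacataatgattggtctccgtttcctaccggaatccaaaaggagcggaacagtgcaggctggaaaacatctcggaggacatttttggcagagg
Mrpl11: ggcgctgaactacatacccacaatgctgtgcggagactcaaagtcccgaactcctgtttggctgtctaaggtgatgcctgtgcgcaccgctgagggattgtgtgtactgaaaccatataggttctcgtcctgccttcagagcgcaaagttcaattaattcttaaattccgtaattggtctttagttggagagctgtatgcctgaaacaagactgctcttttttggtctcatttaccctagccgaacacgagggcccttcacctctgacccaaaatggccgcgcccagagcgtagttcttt
Mrpl27: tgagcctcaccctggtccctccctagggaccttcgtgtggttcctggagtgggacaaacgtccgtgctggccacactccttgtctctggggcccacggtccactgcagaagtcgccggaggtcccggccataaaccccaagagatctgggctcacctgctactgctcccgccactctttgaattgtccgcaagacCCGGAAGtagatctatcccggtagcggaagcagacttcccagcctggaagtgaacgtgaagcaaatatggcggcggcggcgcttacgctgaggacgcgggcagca

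The window of Mrpl34 held an ETS match 37 bases before the start, and that of Mrpl27 held one 55 bases before it. Mrpl42 had a YY1 match 27 bases after its start, and the letters searched were not in the windows of Mrps31 and Mrpl11. RefSeq windows were matched for 69 of the 78 genes. Among these, 26 (37.7%) had an ETS match, against 12.9% of 17492 protein-coding genes with such a window. NRF1 letters were found in 16 (23.2%), against 9.63%, and YY1 letters in 8 (11.6%), against 2.14%. At least 1 of the motifs was present in 42 of the 69 (60.9%), against 21.8%. No window of a mitochondrial ribosomal protein gene had overlapping matches of different motifs. In 37 of the 42 matching genes the match nearest the start lay within 100 bases of it. Median GC content was 58.3% in the windows of these genes and 56.3% in those of all protein-coding genes, and the median number of CpG dinucleotides was 21 against 13, so the motif shares were not compared at equal base composition. A match describes letters and not binding.

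By the scan records of the file headers, slide 1 carried all 3 IL-4 arrays together with PBS replicate 1, and slide 2 carried the other PBS arrays, replicates 2 and 3. Across all tested genes, log2 signal on PBS replicate 1 correlated at 0.994 to 0.997 with the IL-4 arrays and at 0.989 with both other PBS arrays, so that it stood with its slide rather than with its group. The correlations of the IL-4 arrays with PBS replicates 2 and 3 were 0.979 to 0.983. Probes well above background made up 87.9% to 97.0% on IL-4 arrays and 88.9% to 98.0% on PBS arrays, and the lower end of each range was the array in the first position of its slide. Each difference below is therefore given over all 6 arrays and also as the mean of the IL-4 arrays minus PBS replicate 1. This is called the difference within slide 1 and rests on a single PBS sample. Slide 2 held no IL-4 array, so limma with slide as a block gives this same difference, resting on the same PBS sample.

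Arg1, which encodes arginase 1, was higher with IL-4 by 2.02 ± 0.16 on the log2 scale (SE, n = 3 per group, limma adjusted p = 0.0110) and by 2.29 within slide 1, and it kept its call with slide as a block (limma adjusted p = 0.0316). All 10 listed markers of microglia and macrophages were well above background on all arrays. Their summed signal, as a multiple of the 75th percentile of the array, was 33.6 to 36.5 on IL-4 arrays and 36.7 to 48.1 on PBS arrays, and 3 of the 10 fell. These were Tyrobp (-0.95), Lyz2 (-0.81) and Aif1 (-0.72), each a log2 difference called by limma, and with slide as a block their adjusted p was 0.225 to 0.233. Of 25 markers of neurons, astrocytes, oligodendrocytes, endothelial cells and fibroblasts, 22 were tested and 0 were called, and 20 were above background on all arrays. Their summed signal, over the 21 with a value on every array, was 16.3 to 19.6 on IL-4 arrays and 14.4 to 19.1 on PBS arrays. This sum leaves out the astrocyte marker Aqp4, which lacked a value on an array. Aqp4 had the highest mean log2 signals of the 22 tested, 3.66 with IL-4 and 3.58 with PBS. The 5 endothelial markers alone gave 9.96 to 13.3 and 10.1 to 14.8. Pecam1 was the brightest of those 5, at mean log2 signals of 3.40 with IL-4 and 3.48 with PBS. Being above background does not set a marker apart, since 87.9% to 98.0% of all probes were so on single arrays. The part of these markers in the results that follow was not tested.

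With IL-4, 4 mitochondrial ribosomal protein genes fell, Mrpl34, Mrpl42 and Mrpl11 of the large subunit and Mrps31 of the small, by 0.66 to 1.31 on the log2 scale. No gene of the group rose. The other 74 did not pass the test, and 72 of the 78 differed by less than 0.5 in size. Differences below 0 were nevertheless the rule, at 66 of 78 genes (84.6%), against 56.5% of all tested genes and 60.3% of 18270 tested protein-coding genes. The median difference over the 78 was -0.23, beside -0.05 over all tested genes and -0.08 over protein-coding genes. Within slide 1 the median was -0.03, beside 0.0055 over all tested genes, and 49 of 78 (62.8%) were below 0, against 48.7%.

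**Figure D1:**
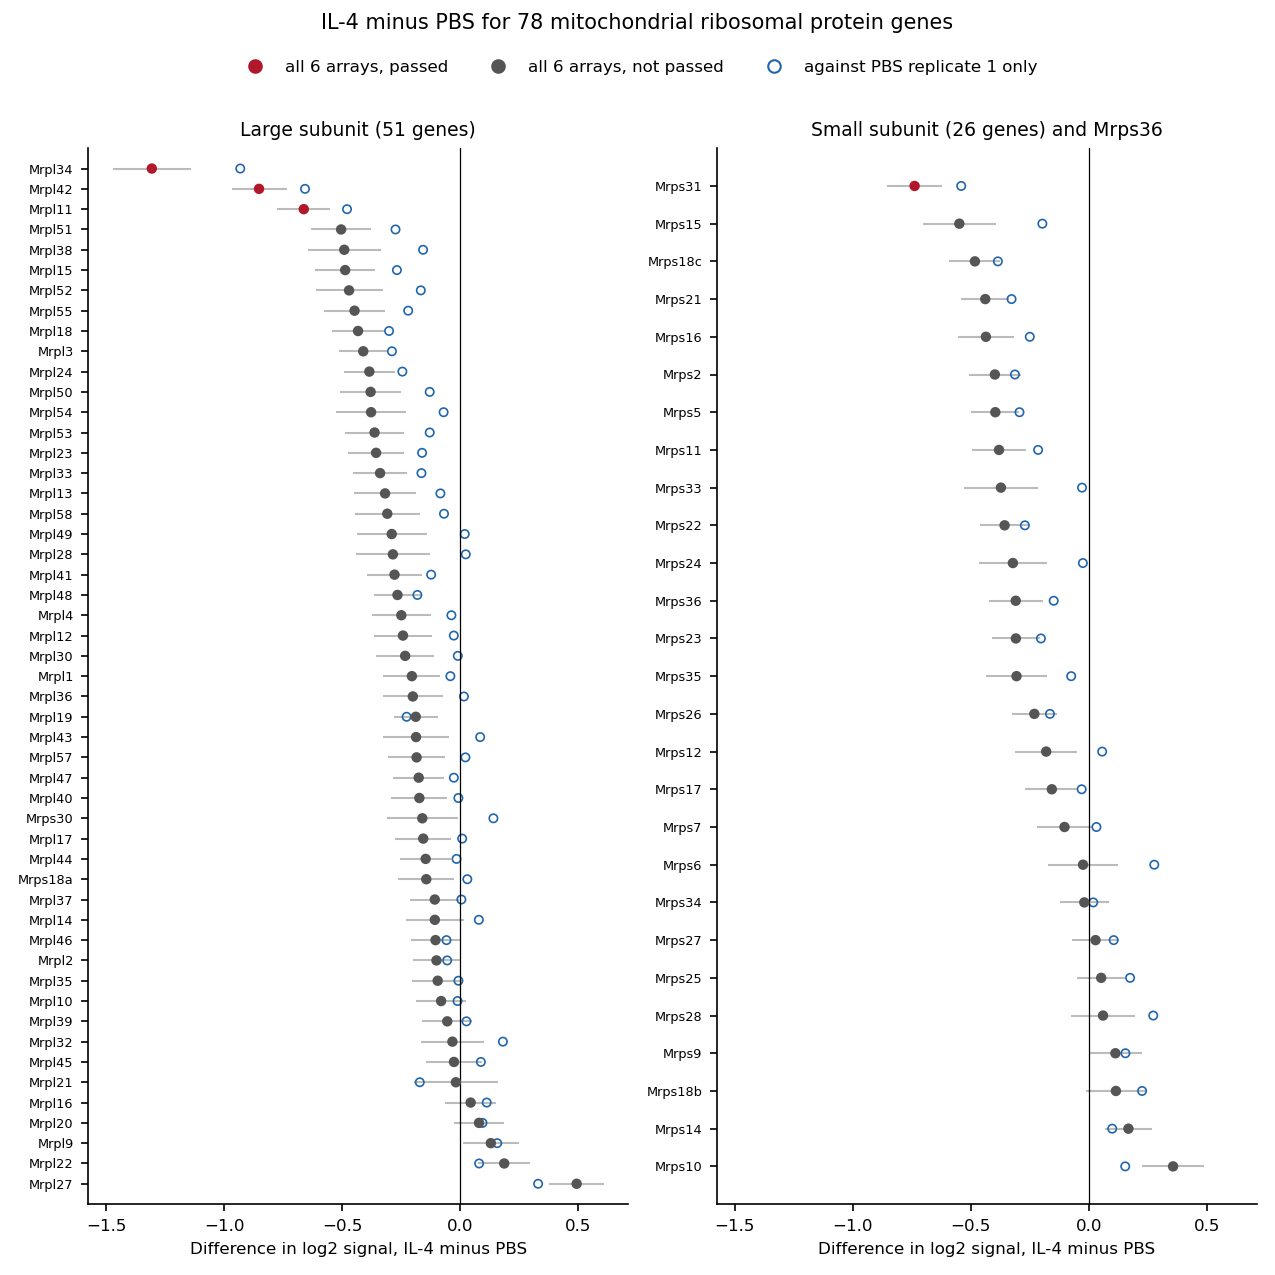
Difference in log2 signal, IL-4 minus PBS (horizontal axis), for each of the 78 genes (vertical axis), large subunit on the left panel and small subunit with Mrps36 on the right. Filled circles with SE bars use all 6 arrays, with the 4 genes that passed the test in red, and open circles are the IL-4 mean minus PBS replicate 1; most filled circles lie left of 0 and most open circles lie nearer to 0.

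The test was limma on log2 signal with Benjamini-Hochberg adjustment over all 29752 genes, and a gene counted as called at an adjusted p under 0.05. It called 997 genes, 240 higher and 757 lower. The 4 lower among 78 are 5.13% of the genes described here, where 2.54% of all tested genes and 3.55% of protein-coding genes were called lower, and the 0 higher compare with 0.807% of all. By an unadjusted limma p under 0.05, 35 of the 78 differed, as did 10152 of all tested genes. Among the 74 genes not called, 22 had a limma adjusted p under 0.1, the lowest of them 0.0517. That count has no share of all tested genes beside it here, so it does not set these genes apart. The standard errors of the 78 differences ran from 0.093 to 0.178.

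Mrpl34 encodes a small large-subunit protein with a bacterial counterpart. Its log2 signal, scaled to the array's 75th percentile, was -1.36, -1.20 and -1.28 on the IL-4 arrays, against -0.35, 0.16 and 0.26 on the PBS arrays. Every IL-4 array lay below every PBS array, and PBS replicate 1 was the lowest of its group. The difference was -1.31 ± 0.17 (SE, n = 3 per group, limma adjusted p = 0.0252), or 2.47-fold lower with IL-4, and it was -0.93 within slide 1.

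Mrpl42 encodes a mitochondria-specific protein of the large subunit. Its log2 signal was -1.03, -0.92 and -0.97 with IL-4, against -0.32, -0.05 and -0.01 with PBS. The groups did not overlap, and PBS replicate 1 again lay on the side of the IL-4 arrays. The difference was -0.85 ± 0.12 (SE, limma adjusted p = 0.0256), or 1.81-fold lower, and -0.66 within slide 1.

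Mrps31 encodes a mitochondria-specific protein of the small subunit. Log2 signals of -1.85, -1.89 and -1.83 on the IL-4 arrays stood against -1.32, -0.98 and -1.06 on the PBS arrays. The IL-4 arrays lay close together and all below the PBS arrays. The gene fell by 0.74 ± 0.12 on the log2 scale (SE, limma adjusted p = 0.0321), or 1.67-fold, and the difference within slide 1 was -0.54.

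Mrpl11 encodes the protein at the base of the ribosomal stalk, where, in bacteria, its counterpart contacts translation factors. Its log2 signal was 1.68, 1.66 and 1.67 with IL-4, against 2.15, 2.44 and 2.41 with PBS. No IL-4 array reached the lowest PBS array. The gene fell by 0.66 ± 0.11 (SE, limma adjusted p = 0.0353), or 1.58-fold, and the difference within slide 1 was -0.48.

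**Figure D2:**
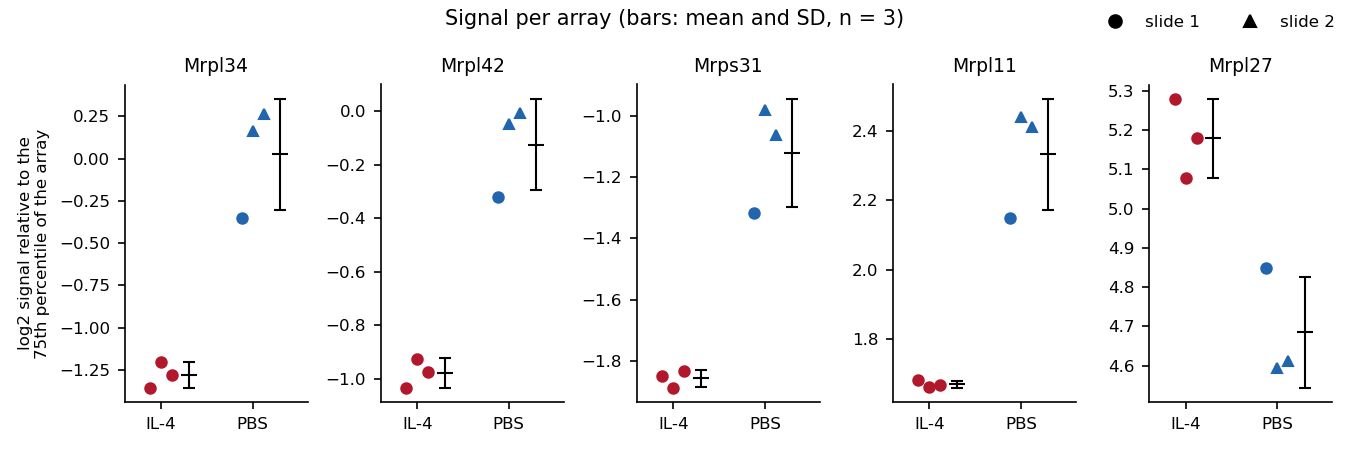
Log2 signal scaled to the array's 75th percentile (vertical axis) on each IL-4 and PBS array for the 4 genes that fell and for Mrpl27, with circles for slide 1 and triangles for slide 2. Bars give mean and SD (n = 3); in each panel the PBS array of slide 1 has a level between those of the IL-4 arrays and of slide 2.

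All 4 genes kept differences below 0 within slide 1, at -0.93 to -0.48. With slide as a block in limma, 9 of all tested genes were called (0.0303%) and 0 of the 78, among which the lowest adjusted p was 0.105, that of Mrpl34. Mrpl42 then had an adjusted p of 0.137, Mrps31 of 0.182 and Mrpl11 of 0.204. Their calls also depended on single arrays: without PBS replicate 1 the adjusted p of the 4 was 2.03e-04 to 9.92e-04, and without any other single array it was 0.104 to 0.161.

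Of the genes not called, the large-subunit gene nearest to the 4 in size was Mrpl51, a mitochondria-specific protein. Its log2 signal was 3.48, 3.32 and 3.40 with IL-4, against 3.67, 4.05 and 3.98 with PBS. The groups did not overlap, and the difference of -0.50 ± 0.13 had a limma adjusted p of 0.0582, with -0.27 within slide 1. Mrpl12, the stalk protein whose bacterial counterpart recruits translation factors and which also binds the mitochondrial RNA polymerase, differed by -0.24 ± 0.12 (limma adjusted p = 0.199). Its log2 signals of 1.32, 1.17 and 1.28 with IL-4 overlapped those of 1.28, 1.63 and 1.57 with PBS, and its difference within slide 1 was -0.03. Mrpl44, a protein with a ribonuclease III-like fold, differed by -0.15 ± 0.11. Mrpl45, which lies at the tunnel exit and anchors the ribosome to the inner membrane, differed by -0.03 ± 0.12. Mrpl32, which the m-AAA protease matures on import, differed by -0.03 ± 0.13, and by 0.18 within slide 1.

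Mrps30 and Mrps18a, named for the small subunit but placed in the large one, had differences of -0.16 ± 0.15 and -0.14 ± 0.12. Within slide 1 these were 0.14 and 0.03. Among the large-subunit genes above 0, Mrpl27 encodes a protein whose bacterial counterpart reaches into the peptidyl transferase centre. Its log2 signal was 5.28, 5.08 and 5.18 on the IL-4 arrays, against 4.85, 4.59 and 4.61 on the PBS arrays. The IL-4 arrays all lay above the PBS arrays, and PBS replicate 1 was the highest of its group. The difference of 0.49 ± 0.12 had a limma adjusted p of 0.0532, and that within slide 1 was 0.33. Mrpl22, a protein that lines the exit tunnel, differed by 0.19 ± 0.11, and Mrpl9 by 0.13 ± 0.12, both short of the test.

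In the small subunit, Mrps15, a protein that in bacteria binds the small-subunit RNA early in assembly, had log2 signals of 0.11, 0.00 and 0.05 with IL-4, against 0.25, 0.77 and 0.79 with PBS. Its PBS arrays of slide 2 lay well above that of slide 1. The difference was -0.55 ± 0.16 (limma adjusted p = 0.0660) and -0.20 within slide 1. Mrps18c, one of a trio of paralogues with Mrps18a and Mrps18b, had 2.01, 1.87 and 1.94 with IL-4, against 2.33, 2.57 and 2.37 with PBS. These did not overlap, and the difference of -0.48 ± 0.11 had the lowest adjusted p among genes not called (limma, 0.0517), with -0.39 within slide 1. The third paralogue, Mrps18b, differed by 0.12 ± 0.13, with 0.23 within slide 1.

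Mrps21 had log2 signals of 2.89, 2.91 and 2.83 with IL-4, against 3.20, 3.41 and 3.33 with PBS, a difference of -0.44 ± 0.10 (limma adjusted p = 0.0528). The groups did not overlap, and the difference within slide 1 was -0.33. Mrps16 and Mrps22, in which human mutations cause defects of oxidative phosphorylation, differed by -0.44 ± 0.12 and -0.36 ± 0.10 (limma adjusted p = 0.0629 and 0.0685), and by -0.25 and -0.27 within slide 1. Mrps16 had 2.34, 2.26 and 2.44 with IL-4, against 2.60, 2.87 and 2.89 with PBS. Mrps22 had 3.15, 3.11 and 3.11 with IL-4, against 3.39, 3.62 and 3.42 with PBS. In both genes all IL-4 arrays lay below all PBS arrays. Mrps12, a protein of the decoding centre, differed by -0.18 ± 0.13, with 0.06 within slide 1. Mrps34, a mitochondria-specific protein, differed by -0.02 ± 0.10.

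The small-subunit genes above 0 were led by Mrps10, whose log2 signal was 2.36, 2.11 and 2.31 with IL-4, against 2.11, 1.88 and 1.73 with PBS. The lowest IL-4 array and the highest PBS array met at 2.11 to 2 decimals, with the IL-4 array the higher. The difference was 0.36 ± 0.13 (limma adjusted p = 0.105) and 0.15 within slide 1. Mrps14 differed by 0.17 ± 0.10, Mrps28 by 0.06 ± 0.14 and Mrps25 by 0.05 ± 0.10. Mrps6 differed by -0.02 ± 0.15 over all arrays and by 0.28 within slide 1. Its log2 signals were 2.70, 2.51 and 2.54 with IL-4, against 2.31, 2.77 and 2.75 with PBS, so that PBS replicate 1 was the lowest array of all and the other PBS arrays were the highest.

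Over the whole group, every IL-4 array lay below every PBS array for 32 genes (41.0%). The share was 20.0% of the 29488 tested genes with a value on every array. In lists described below, it was 39.8% for nuclear respiratory chain subunits and 2.63% for cytosolic ribosomal proteins. Every IL-4 array lay above every PBS array for 3 genes (3.85%), Mrps14, Mrps10 and Mrpl27, against 18.3%. PBS replicate 1 was lower than both PBS replicates 2 and 3 for 70 of the 78 (89.7%), against 50.3% of all tested genes. The share was 88.9% for mitochondrial aminoacyl-tRNA synthetases, 69.9% for respiratory chain subunits and 47.4% for cytosolic ribosomal proteins. The median of PBS replicate 1 minus the mean of the other PBS arrays was -0.25 over the 78 and -0.08 over all tested genes.

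Taking each gene's deviation from its own mean over the 6 arrays, the median over the 78 was -0.06, -0.18 and -0.11 on the IL-4 arrays, against -0.06, 0.23 and 0.17 on the PBS arrays. PBS replicate 1 thus sat level with IL-4 replicate 1, and the slide 2 arrays sat above all of slide 1. IL-4 replicate 1 was the highest of the IL-4 arrays for 59 genes (75.6%), against 30.1% of all tested genes. The share was 69.9% for respiratory chain subunits and 92.1% for cytosolic ribosomal proteins. The median SD of a gene over arrays was 0.084 with IL-4 and 0.162 with PBS. Slide 2 held no IL-4 array, so a slide difference and the spread between PBS cultures cannot be told apart.

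**Figure D3:**
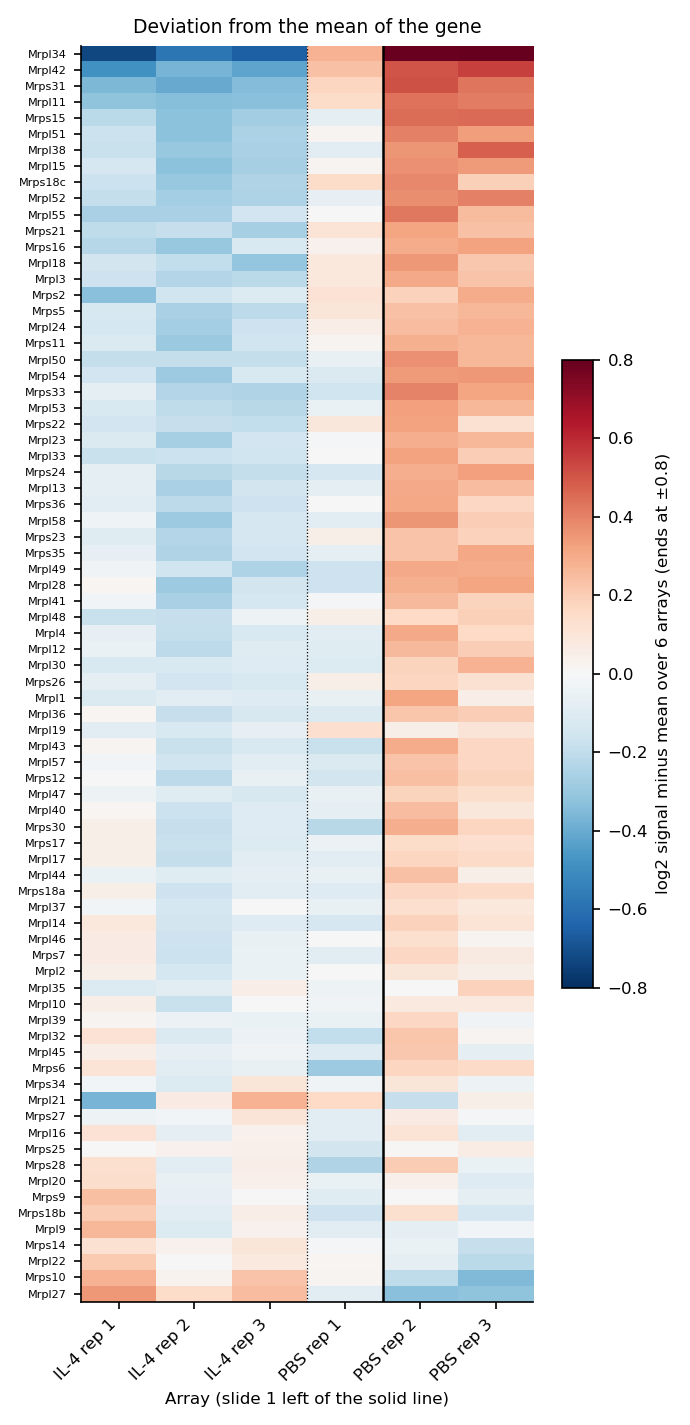
Log2 signal minus the mean of the gene over 6 arrays (colour, red above and blue below, ending at ±0.8) for the 78 genes (vertical, ordered by IL-4 minus PBS) on each array (horizontal). The solid line parts slide 1 from slide 2 and the dotted line parts IL-4 from PBS; the slide 2 columns are red for most genes, while PBS replicate 1 resembles the IL-4 columns except at the top.

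Of the 66 genes with a difference below 0 over all arrays, 49 were also below 0 within slide 1 and 17 were above it. All 12 genes above 0 over all arrays were above 0 within slide 1 too. In 65 of the 78 the difference within slide 1 was the smaller in size, and the differences there ran from -0.93 for Mrpl34 to 0.33 for Mrpl27. Both readings share the IL-4 arrays and PBS replicate 1, so their like signs are partly built in.

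**Figure D4:**
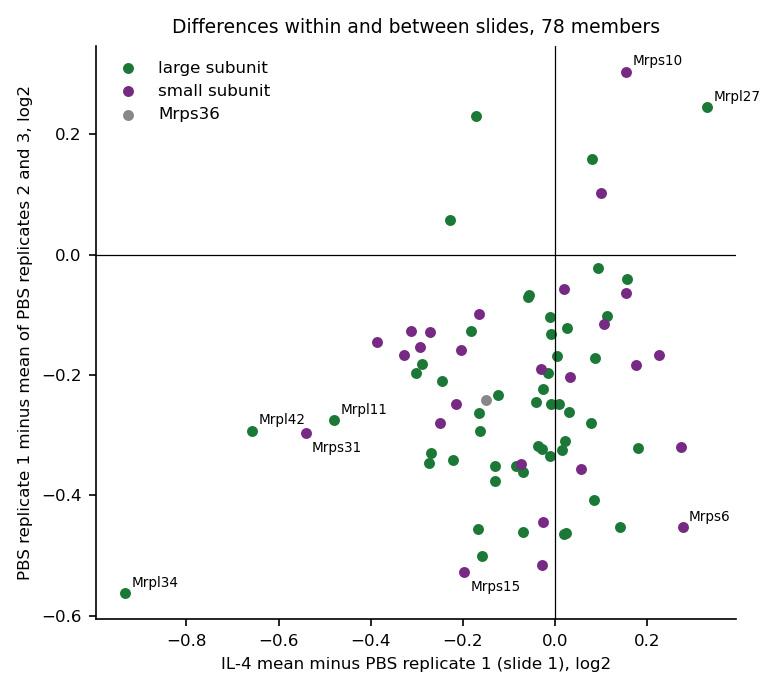
IL-4 mean minus PBS replicate 1 on slide 1 (horizontal axis, log2) against PBS replicate 1 minus the mean of PBS replicates 2 and 3 (vertical axis, log2) for each of the 78 genes, coloured by subunit. Most genes lie below 0 on the vertical axis and on both sides of 0 on the horizontal, and the 4 genes that fell lie farthest left; both axes share PBS replicate 1.

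By subunit, 46 of 51 large-subunit genes were below 0, with a median of -0.20, and 19 of 26 small-subunit genes, with a median of -0.27. Within slide 1 these medians were -0.04 and -0.03. Genes with a bacterial counterpart had a median of -0.19 and 38 of 48 below 0, and mitochondria-specific genes had a median of -0.28 and 27 of 29 below 0. All 20 mitochondria-specific genes of the large subunit were below 0, with a median of -0.27. Within slide 1 the median was -0.03 for genes with a bacterial counterpart and -0.07 for mitochondria-specific genes. Of the genes that fell, Mrpl34 and Mrpl11 have a bacterial counterpart and Mrpl42 and Mrps31 do not. The differences between these classes were not tested.

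By promoter, the 26 genes with an ETS match had a median difference of -0.31, and the 43 without one had -0.17. Within slide 1 these were -0.16 and -0.01. For NRF1 the order was the other way, at -0.09 for the 16 genes with a match and -0.29 for the 53 without, and 0.02 and -0.07 within slide 1. The 8 genes with a YY1 match, Mrpl42 among them, had a median of -0.17, and the 61 without one had -0.23. Within slide 1 the YY1 medians were -0.0013 and -0.03. Among the 4 genes that fell, the windows printed above show an ETS match only for Mrpl34, and Mrpl27, on the other side of 0, has one too. These medians are a description with no test.

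Different probes of a gene did not always give the same sign. A second probe was present for 22 genes, and it had the sign of the brighter one in 14 and the opposite sign in 8. The median gap between the probes was 0.178 on the log2 scale, and the largest was 0.779, for Mrps7, at -0.10 on the brighter probe and 0.68 on the other. For Mrpl27 the other probe gave -0.03, and for Mrpl41 it gave 0.30 against -0.28 on the brighter. Mrpl22, Mrps25 and Mrps14, above 0 on the brighter probe, had -0.25, -0.13 and -0.0013 on the other. Mrps18b was above 0 on both, at 0.12 and 0.03. Mrpl47 and Mrps2, below 0 on the brighter probe, had 0.06 and 0.01 on the other. None of the 22 second probes was called by limma. Mrpl34, Mrpl42, Mrps31 and Mrpl11 each had 1 probe, so no second probe bears on them. RefSeq lists pseudogenes for some of these genes, Mrpl27 among them, and signal from pseudogene transcripts was not tested.

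A further 6 proteins of the mitochondrial ribosome carry other names, among them Dap3 and Ptcd3. None of these 6 was called, and their median difference was -0.13, with 0.02 within slide 1. Among all tested genes 2.54% were called lower, and among protein-coding genes 3.55%. Of 27 genes for assembly of the ribosome and modification of its RNA, 1 fell (3.70%) and 0 rose, with a median of -0.14. This was Trub2, a pseudouridine synthase of mitochondrial RNA, at -0.95 ± 0.18 (limma adjusted p = 0.0395) and -0.56 within slide 1. With slide as a block its adjusted p was 0.249, so that the call was lost.

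Among 17 tested translation factors of the organelle, 2 fell (11.8%, against 2.54% of all tested genes) and 0 rose, with a median of -0.16. Guf1, the mitochondrial counterpart of the bacterial elongation factor LepA, differed by -0.67 ± 0.12 (limma adjusted p = 0.0359) and by -0.50 within slide 1. Mtres1, which rescues stalled mitochondrial ribosomes, differed by -0.61 ± 0.10 (limma adjusted p = 0.0335) and by -0.51 within slide 1. Both calls were lost with slide as a block, at limma adjusted p-values of 0.237 for Guf1 and 0.201 for Mtres1. None of 18 mitochondrial aminoacyl-tRNA synthetases and related enzymes was called (median -0.19), and none of 14 genes for transcription and replication of mitochondrial DNA (median -0.11).

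Nor was any of 9 regulators of mitochondrial biogenesis called, with a median of -0.05. These include factors whose motifs were searched above. Nrf1 differed by 1.12 ± 0.28 (limma adjusted p = 0.0585), with 0.44 within slide 1, and Gabpa, the ETS subunit of GABP, by -0.38 ± 0.10 (limma adjusted p = 0.0603), with -0.30 within slide 1. Nrf1 and Gabpa were named after their values were seen. Yy1, whose motif was also searched, is among the 9 and was not called.

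The respiratory chain and ATP synthase, whose mitochondrial subunits this ribosome makes, had 83 nuclear subunits tested. Of these 3 fell (3.61%, against 2.54% of all tested genes and 3.55% of protein-coding genes) and 0 rose. Below 0 were 68 of the 83, and the median was -0.21, with -0.03 within slide 1. Uqcrb of complex III differed by -0.64 ± 0.13, Atp5j2 of ATP synthase by -0.56 ± 0.12 and Ndufa5 of complex I by -0.53 ± 0.11 (limma adjusted p = 0.0443, 0.0499 and 0.0462). Within slide 1 they differed by -0.41, -0.34 and -0.44, and all 3 calls were lost under the slide block (limma adjusted p = 0.296, 0.345 and 0.313). The 76 cytosolic ribosomal proteins had 27 genes below 0 and a median of 0.12, and 0 were called. Within slide 1, 10 of the 76 were below 0 and the median was 0.14. The difference between the cytosolic and the mitochondrial list was not tested.

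**Figure D5:**
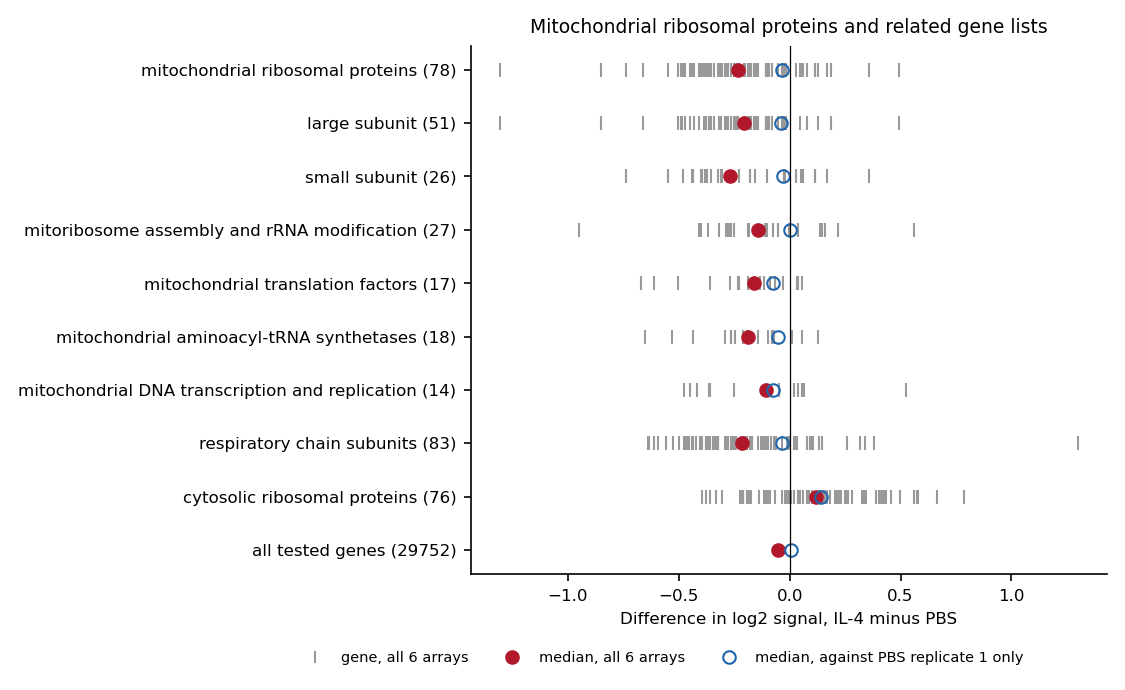
Difference in log2 signal, IL-4 minus PBS (horizontal axis), for the genes of each list (ticks, with the number of tested genes in brackets), their median over all 6 arrays (filled circle) and the median of the IL-4 mean minus PBS replicate 1 (open circle). The filled circles of the mitochondrial lists lie left of 0, with open circles nearer 0, and both circles of the cytosolic ribosomal proteins lie right of 0; for all tested genes only the medians are drawn.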

How the data were processed

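Total RNA of 6 BV2 samples was labelled with Cy3 and hybridised to Agilent arrays, per the labels' protocols. In the deposited scanner files the values are intensity per spot, not logged, from Agilent Feature Extraction 11.0.1.1, which subtracted the background within each array, per the file headers. The authors also deposited a value table, on a log2 scale from its values, with a median of 6.92 in every column. How it was normalized is not given in the sources, and it served only as an alternative.

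Control and outlier-flagged spots were left out (87 to 394 outliers per array), no spot was saturated, and repeat spots of 1 probe were averaged. Processed signals were logged (log2) and each array's 75th percentile was subtracted. A probe entered the test if all arrays of IL-4 or all arrays of PBS showed it well above background, and of several such probes the brightest represented the gene. Accessions without version, matched to a RefSeq table of GRCm38.p6, named 27234 of 39429 probes (69.1%). The file headers give another build for the probes, so coordinates here are only those of the RefSeq windows.

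IL-4 and PBS samples were compared in R 4.3.3 by limma 3.58.1 (lmFit, then eBayes) with no block, adjusting over all tested genes (Benjamini-Hochberg). Every adjusted p is from that fit unless a block or a left-out array is named, and SE is that of the fit. The fit was checked on data simulated without a slide difference, so the check does not bear on how the calls depend on the slide. Named genes were those called, the 6 largest and 6 smallest differences over all arrays and within slide 1, and 11 picked for their role or disease link. In other lists, the called genes were named, and Nrf1, Gabpa, Yy1, Dap3 and Ptcd3 were added outside the rule. The number of arrays limits the precision. Alternatives covered the normalization, background correction, dim-probe filter, probe summary, variance model, slide, replicate block and left-out arrays. The members and lists were chosen with earlier results of these data known. PBS is the control of the sample labels, whereas the design text has untreated cells, and a description field that mentions human blood went against every other label and was not used.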

Additional observations from a re-analysis of the deposited data

How the results depend on the processing

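With 3 arrays per group and IL-4 arrays on 1 slide only, the calls changed with single arrays and with the slide. The median difference of the mitochondrial ribosomal proteins was -0.23 and stayed below 0 in every alternative. It was -0.32 to -0.19 when 1 array was left out. It was -0.0337 both on slide 1 alone and with slide as a block, which give the same estimate, the IL-4 mean minus PBS replicate 1. The count of 997 genes called (757 lower) became 523 (416 lower) with the percentile taken over probes above background on all arrays. It was 605 (488 lower) with the mean of the probes of a gene and 1733 (1202 lower) with median scaling. Each of these had 4 members lower and 0 higher. The count was 2288 (1621 lower) in the authors' value table, with 13 members lower. It was 2636 (1803 lower) with quantile normalization, with 14 members lower, and no member was higher in either. With an intensity trend in eBayes it was 4170 (2115 lower, with 17 members lower). Normexp gave 4055 with percentile scaling (2025 lower, with 18 members lower) and 3077 with quantile normalization (2101 lower, with 20 members lower). Only probes above background on all arrays gave 3808 (1978 lower, with 16 members lower). Each of these 4 called 1 member higher, Mrpl27. Normexp used the median spot signal, as the files hold no mean signal column. The share of calls that were higher was 50.1% with normexp and percentile scaling, against 24.1% as reported.

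Without a filter on dim probes, limma called 15 genes and 0 members. At an unadjusted limma p under 0.05 there were 32 members and 9653 of all genes. Slide 1 alone leaves a single PBS sample, so only its median difference is given, above. Slide as a block gave 9 genes and 0 members (unadjusted, 11 of the 78 and 3037 of the 29752 tested genes). Leaving out 1 array gave 0 to 12654 genes, 0 to 45 members lower and 0 to 2 higher. The upper ends came without PBS replicate 1, with Mrps10 and Mrpl27 the members higher. In that setting 6842 of the 29752 tested genes were called lower, and treatment and slide cannot be told apart. Without each other single array no member was called (21 to 29 unadjusted, beside 6108 to 8032 of all tested genes). Without the arrays in the first position of each slide, an alternative chosen after seeing the data, limma called 0 genes (3660 unadjusted) and 0 members (13 unadjusted), with a median of -0.20. The replicate numbers of the labels were not shown to pair the samples, since deviations of same-numbered arrays correlated at 0.083, -0.016 and 0.296. With the replicate block, 3770 genes were called (1966 lower), with 4 members lower and 1 higher, Mrpl27.

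Each of the 4 genes that fell was called in 11 of 20 alternatives. Among the 20, slide 1 alone and slide as a block share the same estimate and are not separate readings of it. No called difference changed sign. Among the 27 genes of the group named by the rule, some uncalled differences changed sign with a shift of at least their SE. These were those of Mrpl32, Mrps12, Mrps18a, Mrps30 and Mrps6 on slide 1 or with slide as a block. The others were those of Mrpl22 with the mean of its probes and of Mrps14 with normexp and quantile normalization. Sign changes with a smaller shift, such as those of Mrpl45 and Mrps34 on slide 1, are not listed. The cause of these shifts was not tested.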
